A study of Homo sapiens with 18 samples.

Results

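The 38 genes described here encode the machinery that human cells use to make cholesterol and fatty acids, and the switches that set its output. They were chosen by symbol as rows of the deposited count table, 38 of 25369 genes. They comprise 5 SREBP regulators, 8 mevalonate pathway enzymes, 10 enzymes of sterol synthesis from squalene, 6 genes of sterol transport and the LXR system, and 9 genes of fatty acid synthesis and desaturation. One of them, SC4MOL, is listed in the table under its other symbol MSMO1. All 38 passed the filter on low counts, which kept 14850 genes.

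The study measured poly(A) RNA in D425 and D458, established lines of Group 3 medulloblastoma, a cerebellar tumour of childhood. Each line was transduced with hairpins against EYA2, a phosphatase and transcriptional cofactor. In D425 the groups were hairpin 6, hairpin 8 and a non-targeting hairpin as control, and in D458 they were hairpin 7, hairpin 8 and the same kind of control, with 3 libraries in each of the 6 groups. Every group, controls included, was grown in serum-containing medium, kept in 1 µg/mL puromycin for 48 h, sorted for the brightest 10% of cells by the zsGreen carried on the hairpin construct, and left for 24 h before RNA was taken. The values thus describe selected, brightly fluorescent cells of each line. The submitters call the libraries biological replicates.

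Cells sense cholesterol in the membrane of the endoplasmic reticulum. When it is scarce, SCAP escorts the precursors of the SREBP transcription factors, encoded by SREBF1 and SREBF2, to the Golgi, where they are cleaved, and the released factors switch on the genes of sterol and fatty acid synthesis. When sterols are plentiful, INSIG1 and INSIG2 hold SCAP back. Oxysterols and late sterol intermediates also activate the LXR receptors NR1H2 and NR1H3, which raise sterol exporters such as ABCA1 and ABCG1 and the receptor-degrading ligase MYLIP. Because INSIG1 and most synthesis enzymes are themselves SREBP targets, their mRNA levels are commonly read side by side.

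The promoters of 6 of these genes are shown because the genes stand for the groups described below: the regulators SREBF2 and INSIG1, the sterol enzymes CYP51A1, NSDHL and DHCR7, and the desaturase SCD. The sequences are RefSeq's, from GRCh38.p14, 5′ to 3′ on the strand of the gene, and cover the 250 bases before the start site. Capitals mark the sterol regulatory element letters TCACNCCAC and the NF-Y box CCAAT, either of them on either strand.
SREBF2 (chr22:41832855-41833104, plus strand): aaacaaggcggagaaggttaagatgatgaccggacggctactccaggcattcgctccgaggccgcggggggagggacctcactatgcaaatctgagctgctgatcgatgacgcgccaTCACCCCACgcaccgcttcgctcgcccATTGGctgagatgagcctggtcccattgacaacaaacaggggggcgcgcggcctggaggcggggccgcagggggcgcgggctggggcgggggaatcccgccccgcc
INSIG1 (chr7:155297628-155297877, plus strand): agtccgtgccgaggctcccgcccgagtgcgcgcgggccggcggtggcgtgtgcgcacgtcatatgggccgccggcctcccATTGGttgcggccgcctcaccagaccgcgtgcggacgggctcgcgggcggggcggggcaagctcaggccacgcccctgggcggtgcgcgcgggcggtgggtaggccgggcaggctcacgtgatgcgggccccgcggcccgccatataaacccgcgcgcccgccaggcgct
CYP51A1 (chr7:92134478-92134727, minus strand): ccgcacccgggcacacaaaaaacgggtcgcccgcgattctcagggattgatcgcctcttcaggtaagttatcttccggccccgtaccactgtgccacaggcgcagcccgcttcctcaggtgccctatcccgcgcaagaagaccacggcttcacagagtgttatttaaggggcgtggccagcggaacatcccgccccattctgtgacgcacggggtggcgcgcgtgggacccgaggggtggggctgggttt
NSDHL (chrX:152830813-152831062, plus strand): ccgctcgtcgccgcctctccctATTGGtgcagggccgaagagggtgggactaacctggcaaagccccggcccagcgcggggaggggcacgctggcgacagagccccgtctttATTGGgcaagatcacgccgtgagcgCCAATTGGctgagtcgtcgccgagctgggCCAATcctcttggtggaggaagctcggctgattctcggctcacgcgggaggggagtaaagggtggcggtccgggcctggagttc
DHCR7 (chr11:71448394-71448643, minus strand): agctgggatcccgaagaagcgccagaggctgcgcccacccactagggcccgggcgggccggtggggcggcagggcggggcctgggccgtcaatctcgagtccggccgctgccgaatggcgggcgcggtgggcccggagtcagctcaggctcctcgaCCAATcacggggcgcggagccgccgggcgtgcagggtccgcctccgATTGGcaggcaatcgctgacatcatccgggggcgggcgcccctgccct
SCD (chr10:100346983-100347232, plus strand): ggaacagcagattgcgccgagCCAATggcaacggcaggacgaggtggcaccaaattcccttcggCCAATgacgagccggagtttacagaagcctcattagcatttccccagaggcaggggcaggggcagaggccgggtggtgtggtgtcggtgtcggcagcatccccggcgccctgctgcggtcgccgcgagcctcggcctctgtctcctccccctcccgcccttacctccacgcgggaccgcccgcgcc
The SREBF2 promoter held TCACCCCAC with its first base at position -133 and the letters ATTGG, the NF-Y box on the other strand, at position -106. NSDHL held 5 NF-Y boxes, of which 1 pair overlapped, while CYP51A1 held neither kind of match. The table of promoters had 33 of the 38 genes. ACAT2, FDFT1, SQLE, ABCG1 and FASN had no entry. In windows of 300 bases (250 before and 50 after the start), TCACNCCAC occurred in 1 of the 33 promoters and in 1.15% of all 27305 promoters. CCAAT occurred in 19 of the 33 and in 35.7% of all, the E-box CACGTG in 5 of the 33 and in 7.43% of all, and the direct repeat 4 of LXR in 0 of the 33 and in 0.0183% of all. These are matches of letters and not measured binding sites.

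Library totals ran from 21260369 to 31552051 counts. Levels are given as CPM, the share of a library's counts scaled to a common library size by edgeR's TMM factors, in the order of replicates 1, 2 and 3. Tests were edgeR quasi-likelihood tests fitted to all genes, with p-values adjusted by Benjamini-Hochberg over the 14850 genes, and genes with an adjusted p under 0.05 count as called. EYA2 stood at 11.9 CPM on average with hairpin 6 and 14.1 CPM with hairpin 8, against 27.9 CPM in D425 controls, and at 48.1 CPM with hairpin 7 and 20.3 CPM with hairpin 8, against 70.3 CPM in D458 controls. The fall passed the test in every comparison except D458 hairpin 7, where the adjusted p was 0.137, or 0.00692 with the replicate number as a block. Even so, the D458 hairpin 7 libraries (45.1 to 51.9 CPM) all lay below their controls (67.5 to 73.7 CPM). D425 controls spread from 15.5 to 43.6 CPM. Hairpin 8 libraries there (12.04 to 17.5 CPM) overlapped them, while hairpin 6 libraries (9.72 to 15.1 CPM) lay just below. In every group 7 of 8 Group 3 medulloblastoma markers were over 1 CPM. Their summed level ran from 4507 to 5150.3 CPM with hairpin 6 and 4269 to 5024 CPM with hairpin 8, against 5424 to 6227 CPM in D425 controls, with no overlap, and from 5603 to 6469.7 CPM with hairpin 7 and 5284 to 6475 CPM with hairpin 8, against 6303 to 6822 CPM in D458 controls. Most of this sum was MYC and OTX2, with means of 3580 and 1667 CPM in D425 controls. Means of MYC, OTX2, CRX and GABRA5 were lower with both D425 hairpins. Those of IMPG2, NRL and EYS were higher, with 552 and 617 CPM of IMPG2 with hairpins 6 and 8, against 512 CPM in controls. In D425 the summed level of 5 astrocyte markers, of which 1 was over 1 CPM, was 27.8 to 37.5 CPM with hairpin 6 and 17.7 to 31.7 CPM with hairpin 8, against 43.8 to 52.9 CPM in controls, and that of 4 endothelial markers, of which 1 was over 1 CPM, was 3.49 to 5.18 CPM with hairpin 6 and 4.21 to 6.09 CPM with hairpin 8, against 1.397 to 2.65 CPM in controls. In D458 the groups overlapped for both lists. The summed level of 6 fibroblast markers moved with the hairpins. It ran from 42.5 to 85.1 CPM with hairpin 6 and from 50.9 to 95.6 CPM with hairpin 8, against 18.5 to 33.1 CPM in D425 controls, and from 34.3 to 55.6 CPM with hairpin 7 and 32.2 to 60.9 CPM with hairpin 8, against 6.89 to 8.44 CPM in D458 controls. Of these markers 3 averaged over 1 CPM in every D425 group and in D458 controls, and 4 in both D458 hairpin groups, while COL3A1 was at 0 in D458 controls and COL1A2 stayed under 1 CPM in every group. The part of these lists in the results was not tested. In bulk RNA, fewer cells that express a gene and less of its RNA per cell cannot be told apart.

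One library bears on every D458 result below. D458 control replicate 1 stood above the other controls of its line, with a median log2 difference of the 38 genes from the control mean of 0.22, against -0.11 and -0.073 in control replicates 2 and 3. Set against the control of the same number, which shares a prefix and a date in its description, the median of the 38 genes was -0.47, -0.24 and -0.20 in the 3 D458 hairpin 7 libraries and -0.47, -0.0051 and -0.032 in the 3 hairpin 8 libraries. With D458 hairpin 8 the list was thus well below its control in replicate 1 only, while it was below in all 3 replicates with hairpin 7. In D425 the same medians were -0.20, -0.17 and -0.18 with hairpin 6 and -0.19, -0.13 and -0.12 with hairpin 8, even across replicates. By those descriptions replicate 1 of each line has an earlier date than replicates 2 and 3, which share one date.

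**Figure D1:**
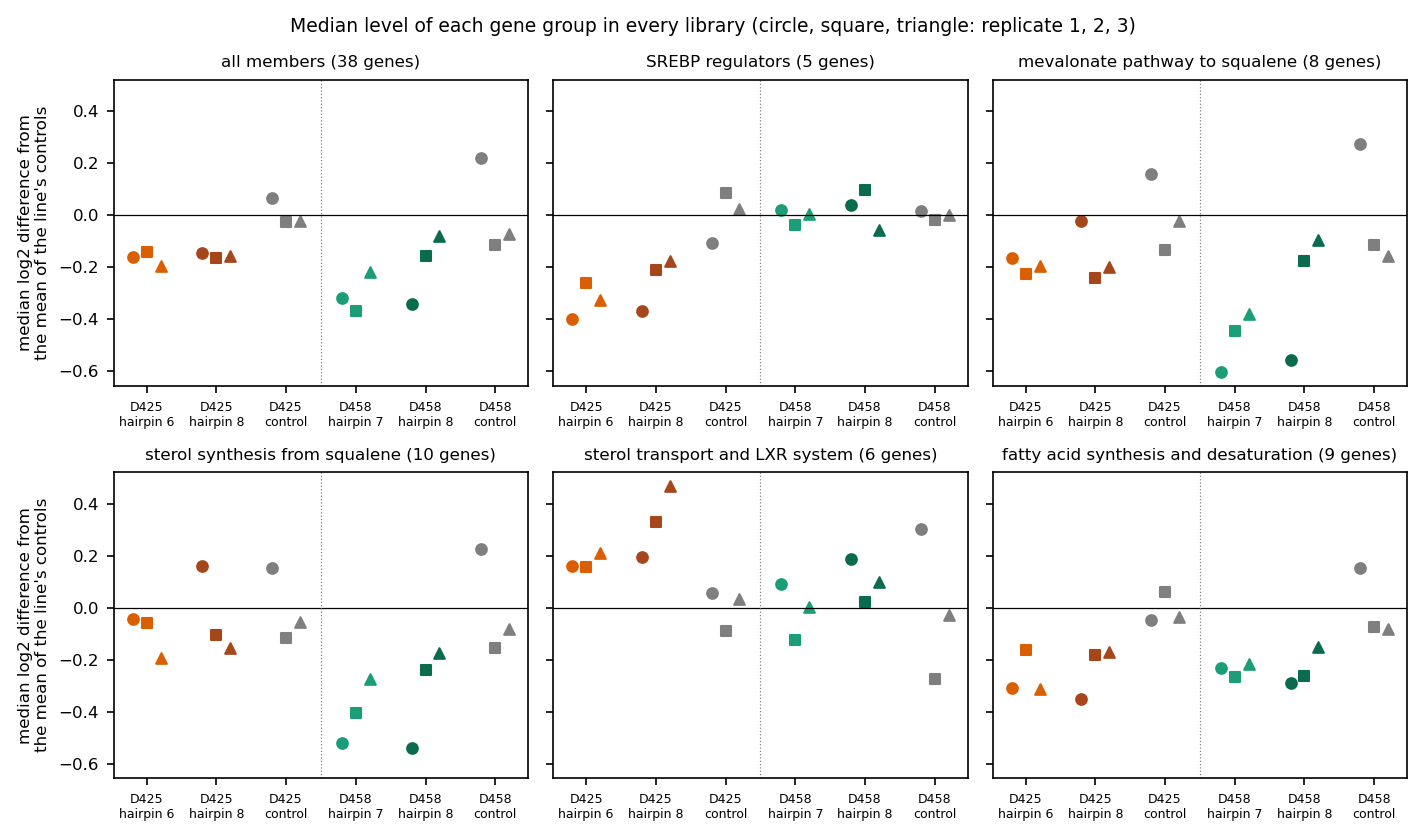
Median log2 difference of each gene group from the mean of the control libraries of the same line, one point per library (circle, square and triangle for replicates 1, 2 and 3; hairpin groups left of their control). Points of the mevalonate and sterol synthesis groups lie well below 0 with D458 hairpin 7, and D458 control replicate 1 lies above the other controls (0.22 over all 38 genes, against -0.11 and -0.073).

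Most of the lipid synthesis genes that passed the test were lower with the hairpin, in all 4 comparisons. D425 hairpin 6 had 8 of the 38 called, 1 higher and 7 lower, where 14.1% of all genes tested were called (6.84% lower). D425 hairpin 8 had 13 called, 2 higher and 11 lower, against 21.7% of all genes (10.1% lower). With D458 hairpin 7 there were 21 called, 2 higher and 19 lower, against 22.6% of all genes (11.1% lower). With D458 hairpin 8 there were 12 called, 2 higher and 10 lower, against 23.2% of all genes (11.1% lower). As shares of the 38 these are 21.1%, 34.2%, 55.3% and 31.6%. The median log2 fold changes of the 38 genes were -0.16, -0.14, -0.32 and -0.23 in the same order, and those of all genes lay between 0.0085 and 0.015.

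These counts moved with single libraries. For D425 hairpin 6 the count was 5 (13.2%, against 8.62% of all genes) without hairpin 6 replicate 1, 4 (10.5%, against 8.67% of all genes) without hairpin 6 replicate 3 and 4 (10.5%, against 8.13% of all genes) without control replicate 2. Its share was 23.7%, against 10.4% of all genes, without hairpin 6 replicate 2. Without control replicates 1 and 3 it was 28.9% and 15.8%, against 17.6% and 6.38% of all genes. For D425 hairpin 8 it was 4 (10.5%, against 13.8% of all genes) without hairpin 8 replicate 1, 8 (21.1%, against 20.8% of all genes) without replicate 2 and 7 (18.4%, against 17.4% of all genes) without replicate 3. Without a D425 control it was 3 (7.89%, against 14.05% of all genes) for replicate 2 and 3 (7.89%, against 10.7% of all genes) for replicate 3. The D425 hairpin 8 share was thus below or near that of all genes in each of these 5 cases. Without control replicate 1 it was 34.2%, against 23.1% of all genes. For D458 hairpin 7 the count was 9 (23.7%, against 8.69% of all genes) without hairpin 7 replicate 1 and 11 (28.9%, against 15.3% of all genes) without control replicate 1. For D458 hairpin 8 it was 4 (10.5%, against 9.88% of all genes) without hairpin 8 replicate 1, 8 (21.1%, against 22.03% of all genes) without hairpin 8 replicate 2 and 6 (15.8%, against 15.2% of all genes) without control replicate 1, again near the share of all genes. Without that control the 6 called D458 hairpin 8 genes were 3 higher and 3 lower, and the median log2 fold change of the 38 was -0.015 with hairpin 8 and -0.24 with hairpin 7. The D458 hairpin 8 share was 42.1%, against 22.3% of all genes, without hairpin 8 replicate 3. Without control replicates 2 and 3 it was 23.7% each, against 14.8% and 13.5% of all genes. Without each other library the D458 hairpin 7 share was 36.8% to 44.7%, against 12.9% to 19.5% of all genes. With the replicate number as a block, the counts rose to 13 with D425 hairpin 6 and 20 with D425 hairpin 8, where 27.8% and 37.2% of all genes were called. Where a call of a named gene also ended with RLE scaling, with no filter on low counts or with the 9 libraries of its line fitted alone, that adjusted p is given beside those for single libraries. Further calls ended with a replicate number left out of every group, which is stated for a few genes only. The hairpin comparisons of a line share its 3 controls. In D425, 1 member was called higher and 6 lower with both hairpins, 7 in all, against 6.48%, 5.94% and 12.4% of all genes. In D458, 1 was called higher and 10 lower, 11 in all, against 9.28%, 8.64% and 17.9% of all genes.

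**Figure D2:**
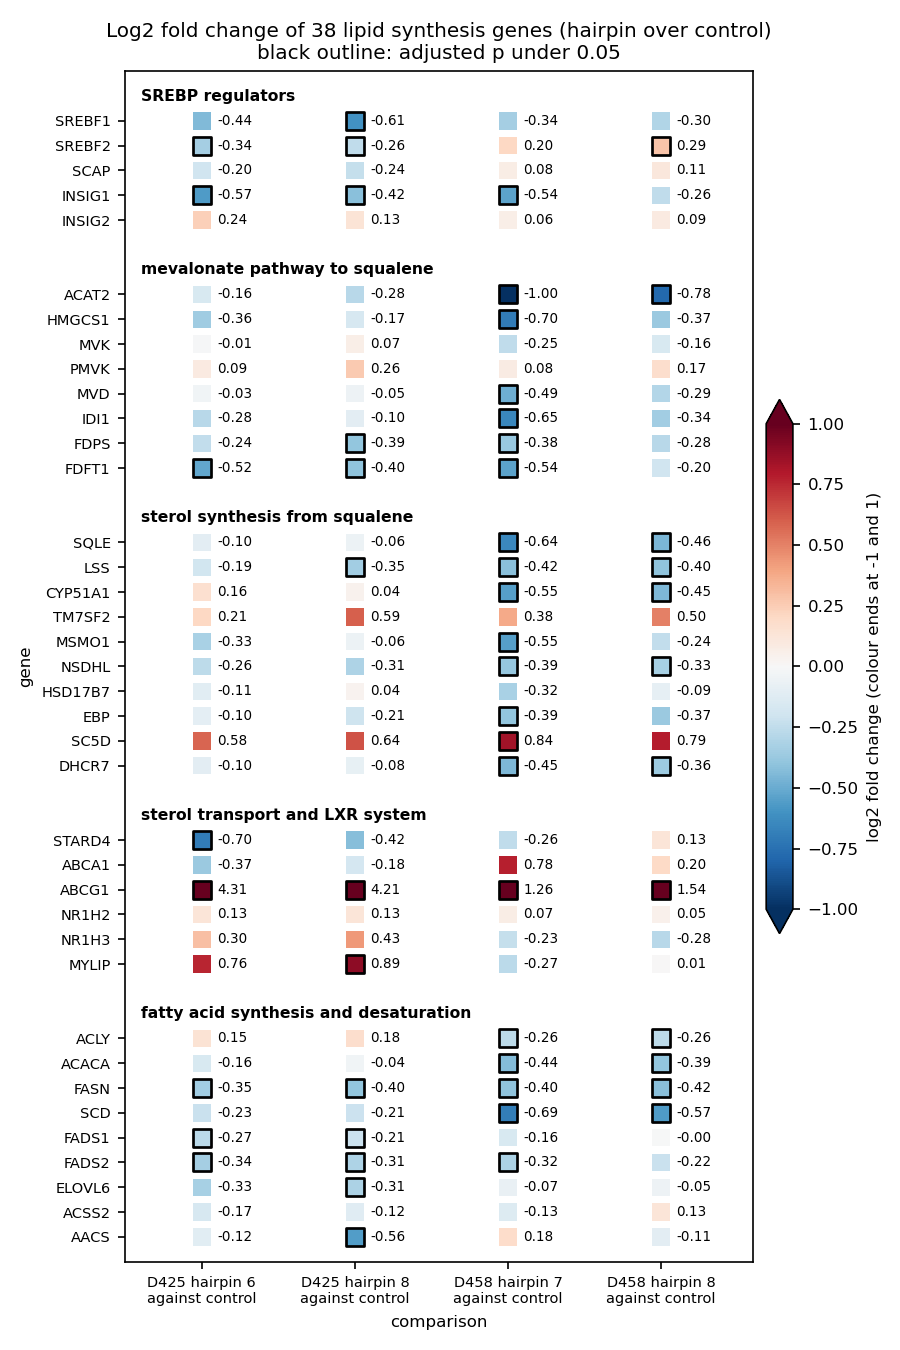
Log2 fold change of each of the 38 genes (rows, grouped by role) in the 4 comparisons of a hairpin with its control (columns), by colour and printed value, with a black outline where the adjusted p was under 0.05. Outlined blue cells crowd the mevalonate and sterol synthesis rows of D458 hairpin 7, FASN is outlined blue and ABCG1 outlined red in all 4 columns.

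Among the SREBP regulators, SREBF2, which encodes the SREBP form that acts mainly on sterol genes, fell in D425 and rose with D458 hairpin 8. In D425 it had 249, 275 and 264 CPM with hairpin 6 and 256, 286 and 293 CPM with hairpin 8, against 291, 368 and 336 CPM in controls. Every hairpin 6 library lay below every control, while hairpin 8 overlapped the lowest control. The log2 fold change was -0.34 ± 0.085 (SE, adjusted p 0.0145) with hairpin 6 and -0.26 ± 0.085 (SE, adjusted p 0.0419) with hairpin 8. D458 cells had 545, 462 and 513 CPM with hairpin 7 and 546, 511 and 551 CPM with hairpin 8, against 455, 429 and 435 CPM in controls. All 6 D458 hairpin libraries lay above all 3 controls. There the change was 0.29 ± 0.085 (SE, adjusted p 0.0246) with hairpin 8 and 0.20 ± 0.085 with hairpin 7, where the adjusted p was 0.0915, or 0.0103 with the block. Single libraries mattered: the call ended for D425 hairpin 6 without hairpin 6 replicate 1 or control replicates 2 or 3 (adjusted p up to 0.0881), for D425 hairpin 8 without hairpin 8 replicates 1 or 2 or control replicates 2 or 3 (adjusted p up to 0.198, or 0.0597 with no filter and 0.0702 with the line alone), and for D458 hairpin 8 without hairpin 8 replicate 1 or control replicates 2 or 3 (adjusted p up to 0.0632).

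INSIG1, the sterol-sensing anchor of SCAP and itself an SREBP target, fell in 3 of the 4 comparisons. It stood in D425 at 25.4, 22.5 and 20.1 CPM with hairpin 6 and 25.9, 26.3 and 23.3 CPM with hairpin 8, against 36.4, 32.6 and 31.9 CPM in controls. In D458 it stood at 46.6, 46.2 and 40.5 CPM with hairpin 7 and 49.6, 56.7 and 55.7 CPM with hairpin 8, against 83.2, 55.2 and 55.2 CPM in controls. D425 hairpin libraries were all below their controls, and so were those of D458 hairpin 7, whereas D458 hairpin 8 overlapped control replicates 2 and 3. Log2 fold changes were -0.57 ± 0.14 (SE, adjusted p 0.0119) and -0.42 ± 0.14 (SE, adjusted p 0.0405) in D425 with hairpins 6 and 8, and -0.54 ± 0.14 (SE, adjusted p 0.0115) and -0.26 ± 0.14 (SE, adjusted p 0.1799) in D458 with hairpins 7 and 8. The D458 hairpin 7 call ended without hairpin 7 replicate 3 or control replicate 1 (adjusted p up to 0.0763), the D425 hairpin 6 call without hairpin 6 replicate 3 (adjusted p up to 0.0645), and the D425 hairpin 8 call without any 1 of its 6 libraries (adjusted p up to 0.124).

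SREBF1, whose product acts mainly on fatty acid genes, fell with D425 hairpin 8 by the main test, and in all 4 comparisons once the replicate number was a block. Its levels in D425 were 148, 196 and 179 CPM with hairpin 6 and 122, 182 and 163 CPM with hairpin 8, against 192, 267 and 252 CPM in controls. D458 levels were 57.8, 58.4 and 68.7 CPM with hairpin 7 and 54.97, 61.8 and 72.9 CPM with hairpin 8, against 69.8, 84.9 and 79.2 CPM in controls. Within each D425 replicate number the control was the highest of the 3 libraries, although hairpin 6 overlapped the controls when numbers were ignored. The log2 fold change was -0.44 ± 0.16 and -0.61 ± 0.16 with D425 hairpins 6 and 8, and -0.34 ± 0.16 and -0.30 ± 0.16 with D458 hairpins 7 and 8. Adjusted p values were 0.0686, 0.0119, 0.1298 and 0.177 without the block, and 0.000216, 8.37e-06, 0.00173 and 0.00317 with it. The call with D425 hairpin 8 ended without hairpin 8 replicate 1 or control replicates 2 or 3 (adjusted p up to 0.0618). SCAP, the escort protein, had log2 fold changes of -0.20 and -0.24 in D425, which passed only with the block (adjusted p 0.0222 and 0.00582), and of 0.076 and 0.11 in D458. INSIG2, the second anchor, passed in no comparison of a hairpin with its control, with changes between 0.063 and 0.24.

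The mevalonate pathway builds squalene from acetyl-CoA, and 6 of its 8 genes fell with D458 hairpin 7. With D458 hairpin 8, 1 of the 8 fell, with D425 hairpin 6 also 1, and with D425 hairpin 8, 2. The shares called were 75.000% with D458 hairpin 7, against 22.6% of all genes, and with D458 hairpin 8 12.5%, against 23.2%, with D425 hairpin 6 12.5%, against 14.1%, and with D425 hairpin 8 25%, against 21.7%, so only the D458 hairpin 7 share was well above that of all genes. With the block, 2 were lower with D458 hairpin 8. The median log2 fold change of the 8 genes was -0.51 and -0.28 in D458 with hairpins 7 and 8, and -0.20 and -0.14 in D425 with hairpins 6 and 8. Pathway-wide, MVK and PMVK, the kinases that phosphorylate mevalonate in succession, passed in no comparison of a hairpin with its control, with changes from -0.25 to 0.26.

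ACAT2, the cytosolic thiolase that opens the pathway, had the lowest log2 fold change of the 38 genes with either D458 hairpin. D458 cells had 30.5, 41.6 and 43.5 CPM with hairpin 7 and 30.1, 52.2 and 51.7 CPM with hairpin 8, against 99.6, 63.2 and 67.5 CPM in controls. All 6 hairpin libraries lay below all 3 controls, with the replicate 1 libraries the farthest apart. Log2 fold changes were -0.996 ± 0.20 (SE, adjusted p 0.00386) with hairpin 7 and -0.78 ± 0.20 (SE, adjusted p 0.0132) with hairpin 8. The hairpin 8 call ended without hairpin 8 replicate 1 or control replicate 1 (adjusted p up to 0.0727, or 0.0512 with the line alone). In D425 the changes were -0.16 ± 0.20 and -0.28 ± 0.20 with hairpins 6 and 8, and neither passed (adjusted p 0.659 and 0.352). Exons of ACAT2 overlap those of SOD2 and TCP1 on the opposite strand, and the strand setting of the counting is not given, so its counts may hold reads of either. SOD2, with the longer overlap, had log2 fold changes of -0.15 and -0.070 in D458 with hairpins 7 and 8 (adjusted p 0.393 and 0.713), and TCP1 changed by -0.30 and -0.30 on the log2 scale in D458 (adjusted p 0.01695 and 0.0164).

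FDFT1, squalene synthase, commits the pathway to sterols and fell in 3 comparisons. Its D425 levels were 108, 103 and 102 CPM with hairpin 6 and 115, 103 and 122 CPM with hairpin 8, against 143, 144 and 161 CPM in controls. Its D458 levels were 119, 131 and 141 CPM with hairpin 7 and 136, 172 and 185 CPM with hairpin 8, against 219, 173 and 175 CPM in controls. The hairpin groups lay wholly below the controls in D425 and with D458 hairpin 7, but D458 hairpin 8 replicates 2 and 3 lay near control replicates 2 and 3. The log2 fold change was -0.52 ± 0.11 (SE, adjusted p 0.00596), -0.40 ± 0.11 (SE, adjusted p 0.0197) and -0.54 ± 0.11 (SE, adjusted p 0.00429) with D425 hairpin 6, D425 hairpin 8 and D458 hairpin 7, and -0.20 ± 0.11 (SE, adjusted p 0.205) with D458 hairpin 8. Only the D425 hairpin 8 call of these ended when 1 library was left out, without hairpin 8 replicate 2 or control replicate 3 (adjusted p up to 0.0975). Without replicate 2 of every group all 3 calls ended.

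HMGCS1, IDI1, MVD and FDPS, enzymes of the steps in between, fell with D458 hairpin 7 by 0.70, 0.65, 0.49 and 0.38 on the log2 scale (adjusted p 0.01698, 0.00736, 0.0157 and 0.0224). HMGCS1, the first of them, had 136, 168 and 147 CPM with hairpin 7 and 155, 209 and 199 CPM with hairpin 8, against 345, 185 and 199 CPM in controls. Control replicate 1 was far above every other D458 library, and the hairpin 8 group overlapped control replicates 2 and 3. Calls with D458 hairpin 7 ended for HMGCS1 without hairpin 7 replicate 1 or control replicate 1 (adjusted p up to 0.0978, or 0.05602 with the line alone), for IDI1 without hairpin 7 replicate 1 (adjusted p up to 0.0517), for MVD without hairpin 7 replicates 1 or 2 or control replicate 1 (adjusted p up to 0.08497) and for FDPS without hairpin 7 replicates 1 or 2 or control replicates 1 or 3 (adjusted p up to 0.128, or 0.0883 with the line alone). With D458 hairpin 8 their log2 fold changes were -0.37, -0.34, -0.29 and -0.28, and FDPS passed only with the block (adjusted p 0.0181). FDPS also fell by 0.39 with D425 hairpin 8 (adjusted p 0.0192), a call that ended without hairpin 8 replicate 1 or control replicates 2 or 3 (adjusted p up to 0.0611). FDPS, MVK and IDI1 share exonic sequence with overlapping genes and FDPS has a near-identical pseudogene, so their counts are uncertain.

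Enzymes that turn squalene into cholesterol were called mainly in D458. With D458 hairpin 7, 7 of the 10 were lower and 1 was higher, and with D458 hairpin 8, 5 were lower, where 11.1% of all genes were called lower with either hairpin. In D425, 1 was lower with hairpin 8, where 10.1% of all genes were called lower, or 2 higher and 2 lower with the block, and edgeR called 0 with hairpin 6, where DESeq2 also called 0 and 2 were lower at an unadjusted p under 0.05. Medians over the 10 genes were -0.41 and -0.35 in D458 with hairpins 7 and 8, and -0.10 and -0.058 in D425 with hairpins 6 and 8.

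SQLE, squalene epoxidase, is a rate-limiting step of the branch. It had 148, 149.6 and 149 CPM with hairpin 7 and 152, 175 and 180.5 CPM with hairpin 8, against 294, 198 and 205 CPM in controls in D458. The hairpin libraries all lay below the controls, and the hairpin 7 libraries were almost equal. The log2 fold change was -0.64 ± 0.14 (SE, adjusted p 0.00449) with hairpin 7 and -0.46 ± 0.14 (SE, adjusted p 0.0251) with hairpin 8, and -0.10 ± 0.14 and -0.060 ± 0.14 with hairpins 6 and 8 in D425. The D458 hairpin 8 call ended without hairpin 8 replicates 1 or 2 or control replicate 1 (adjusted p up to 0.175).

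CYP51A1, the lanosterol demethylase, followed with 98.2, 116 and 106 CPM with hairpin 7 and 105, 124 and 116 CPM with hairpin 8, against 184, 144 and 143 CPM in controls in D458. Again no hairpin library reached a control. Its changes were -0.55 ± 0.13 (SE, adjusted p 0.006199) with hairpin 7 and -0.45 ± 0.12 (SE, adjusted p 0.0173) with hairpin 8, the second of which ended without hairpin 8 replicate 1 or control replicate 1 (adjusted p up to 0.105). D425 gave 0.16 ± 0.12 and 0.042 ± 0.12 with hairpins 6 and 8, neither passing.

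LSS, lanosterol synthase, was the sterol enzyme called lower with D425 hairpin 8 as well as in D458. D458 levels were 87.3, 84.5 and 96.5 CPM with hairpin 7 and 72.6, 94.3 and 104 CPM with hairpin 8, against 137, 109 and 113 CPM in controls. D425 levels were 144, 143 and 134 CPM with hairpin 6 and 126, 129 and 122 CPM with hairpin 8, against 154, 161 and 164 CPM in controls. In both lines no hairpin library reached the lowest control. Log2 fold changes were -0.42 ± 0.11 (SE, adjusted p 0.0133) and -0.40 ± 0.11 (SE, adjusted p 0.0156) in D458 with hairpins 7 and 8, and -0.19 ± 0.11 (SE, adjusted p 0.284) and -0.35 ± 0.11 (SE, adjusted p 0.0313) in D425 with hairpins 6 and 8. Its calls ended for D458 hairpin 7 without hairpin 7 replicates 1 or 2 or control replicate 1 (adjusted p up to 0.07603, or 0.06003 with the line alone), for D458 hairpin 8 without hairpin 8 replicate 1 or control replicate 1 (adjusted p up to 0.0931, or 0.0644 with the line alone), and for D425 hairpin 8 without hairpin 8 replicates 1 or 3 or control replicates 2 or 3 (adjusted p up to 0.105).

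DHCR7, which makes cholesterol in the last step of the Kandutsch-Russell branch, had 87.7, 90.5 and 95.5 CPM with hairpin 7 and 86.8, 94.9 and 110.2 CPM with hairpin 8, against 144, 109.7 and 121 CPM in controls in D458. Hairpin 7 libraries were all below the controls, and hairpin 8 replicate 3 was level with control replicate 2. The change was -0.45 ± 0.10 (SE, adjusted p 0.00605) with hairpin 7 and -0.36 ± 0.10 (SE, adjusted p 0.0194) with hairpin 8, the second ending without hairpin 8 replicates 1 or 2 or control replicate 1 (adjusted p up to 0.112, or 0.0559 with the line alone). NSDHL, a C4 demethylation enzyme whose promoter held the 5 NF-Y boxes, had 79.99, 88.6 and 100.4 CPM with hairpin 7 and 79.1, 96.9 and 103 CPM with hairpin 8, against 135, 106 and 111 CPM in controls in D458. Both hairpin groups lay below the controls. Its calls (-0.39 ± 0.12 (SE, adjusted p 0.0261) and -0.33 ± 0.12 (SE, adjusted p 0.0485) with hairpins 7 and 8) ended without hairpin 7 replicates 1 or 2 or control replicates 1 or 3 (adjusted p up to 0.146, or 0.0668 with the line alone) for hairpin 7 and without hairpin 8 replicates 1 or 2 or control replicates 1, 2 or 3 (adjusted p up to 0.261, or 0.0583 with RLE scaling, 0.0792 with no filter and 0.09899 with the line alone) for hairpin 8. The C4 methyl oxidase MSMO1 and the isomerase EBP fell with D458 hairpin 7 by 0.55 and 0.39 (adjusted p 0.0173 and 0.0479). The MSMO1 call ended without hairpin 7 replicates 1 or 3 or control replicate 1 (adjusted p up to 0.117) and the EBP call without hairpin 7 replicates 1 or 2 or control replicates 1, 2 or 3 (adjusted p up to 0.2404, or 0.0574 with RLE scaling, 0.0582 with no filter and 0.121 with the line alone). With hairpin 8 they had changes of -0.24 and -0.37, and EBP passed only with the block (adjusted p 0.00205).

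SC5D, the desaturase that forms the double bond DHCR7's substrate needs, went the other way. D458 cells had 176, 163 and 99.7 CPM with hairpin 7 and 205, 124 and 94.7 CPM with hairpin 8, against 103, 71.8 and 71.05 CPM in controls. D425 cells had 191, 243 and 299 CPM with hairpin 6 and 222, 298 and 244 CPM with hairpin 8, against 170.4, 189.8 and 131 CPM in controls. In D425 every hairpin library was above every control, and in D458 all but 1 library of each hairpin group were. The log2 fold change was 0.84 ± 0.28 (SE, adjusted p 0.0415) with D458 hairpin 7, a call that ended without hairpin 7 replicates 1 or 2 or control replicates 2 or 3 (adjusted p up to 0.167, or 0.0807 with no filter and 0.0727 with the line alone). It was 0.79 ± 0.28 (SE, adjusted p 0.0519) with D458 hairpin 8, 0.58 ± 0.27 (SE, adjusted p 0.183) with D425 hairpin 6 and 0.64 ± 0.27 (SE, adjusted p 0.1095) with D425 hairpin 8, and these passed with the block (adjusted p 0.0105, 0.0398 and 0.0203). TM7SF2, a sterol reductase whose exons overlap those of VPS51 on the same strand, had changes of 0.21 to 0.59 and passed only with D425 hairpin 8 and the block (adjusted p 0.0241). HSD17B7, which has a near-identical pseudogene, had changes of -0.32 to 0.038 and passed only with D458 hairpin 7 and the block (adjusted p 0.0194).

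**Figure D3:**
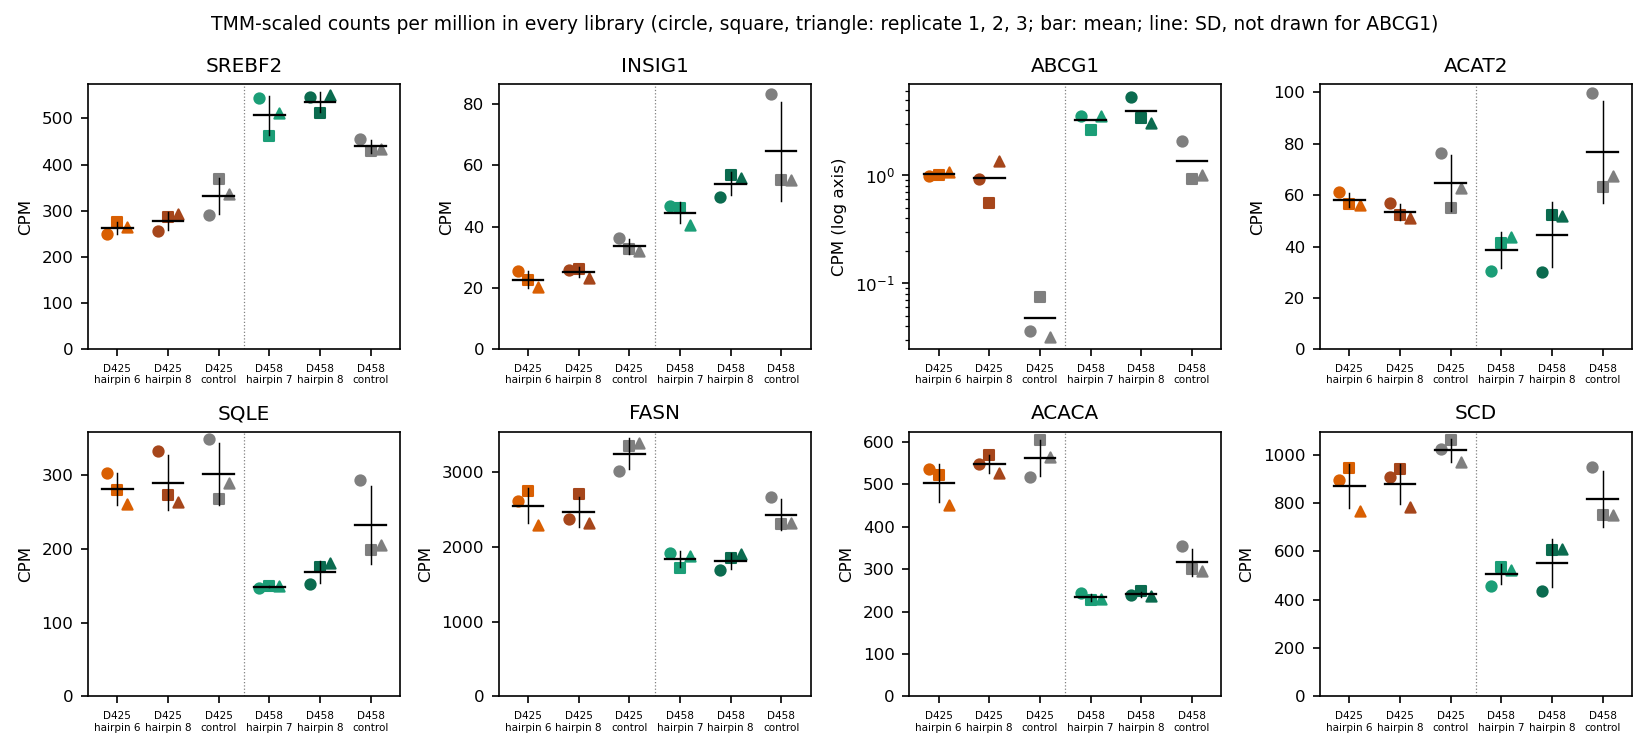
TMM-scaled CPM of 8 genes in every library (circle, square and triangle for replicates 1, 2 and 3; bar, mean; vertical line, SD; log axis and no SD for ABCG1), with hairpin groups left of their control in each line. FASN hairpin libraries lie below controls and ABCG1 hairpin libraries above controls in both lines, and SREBF2 is lower in D425 and higher in D458. D458 control replicate 1 is the highest control of its line for all 8 genes.

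Among the genes of sterol transport and the LXR system, ABCG1, an exporter that loads cholesterol onto lipoproteins and a textbook LXR target, rose in all 4 comparisons. In D425 the raw counts were 25, 26 and 32 with hairpin 6 and 28, 15 and 40 with hairpin 8, against 1, 2 and 1 in controls. In D458 the levels were 3.54, 2.64 and 3.49 CPM with hairpin 7 and 5.34, 3.35 and 3.02 CPM with hairpin 8, against 2.09, 0.929 and 1.001 CPM in controls. D425 controls thus held almost no reads of the gene, and no hairpin library of either line overlapped its controls. Over the group sums the ratio to control was 22.5 with D425 hairpin 6 and 21.6 with D425 hairpin 8, with exact 95% intervals of 8.48 to 84.6 and 8.14 to 81.2 that cover counting error only. D458 ratios were 2.49 with hairpin 7 (interval 1.94 to 3.21) and 3.06 with hairpin 8 (interval 2.41 to 3.92). Adjusted p values were 0.000155 and 0.000138 in D425 with hairpins 6 and 8, and 0.0179 and 0.00606 in D458 with hairpins 7 and 8. The hairpin 7 call ended without hairpin 7 replicate 1 or control replicates 2 or 3 (adjusted p up to 0.0732). Both D458 calls ended without replicate 2 or replicate 3 of every group.

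Of the other genes of the LXR system, MYLIP was called in 1 comparison of a hairpin with its control, and ABCA1, NR1H2 and NR1H3 were called in none. The receptor genes NR1H2 and NR1H3, coding for LXR beta and LXR alpha, passed in no hairpin comparison. NR1H3 had 9.93, 9.63 and 11.96 CPM with hairpin 6 and 11.01, 10.7 and 12.8 CPM with hairpin 8, against 8.92, 7.31 and 9.37 CPM in controls in D425, and 6.09, 5.13 and 7.21 CPM with hairpin 7 and 5.602, 6.69 and 5.61 CPM with hairpin 8, against 6.44, 7.28 and 7.97 CPM in controls in D458. D425 hairpin libraries all lay above their controls, while the D458 groups overlapped. The log2 fold change was 0.30 ± 0.16 (SE, adjusted p 0.224) and 0.43 ± 0.15 (SE, adjusted p 0.0556) in D425 with hairpins 6 and 8, and -0.23 ± 0.16 and -0.28 ± 0.16 in D458 with hairpins 7 and 8. With the block the adjusted p for D425 hairpin 8 was 0.0138. ACP2, whose exons overlap those of NR1H3 on the opposite strand, had log2 fold changes of 0.35 and 0.42 in D425 with hairpins 6 and 8, so the reads of the pair may not be separate.

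ABCA1, the exporter that starts HDL particles, passed in no comparison of a hairpin with its control. It had 3.72, 6.91 and 7.18 CPM with hairpin 6 and 4.59, 8.12 and 7.76 CPM with hairpin 8, against 2.71, 12.3 and 8.07 CPM in controls in D425, and stayed under 1 CPM in every D458 library. The 3 D425 controls spread more widely than the difference between groups. MYLIP, the ligase that degrades lipoprotein receptors, had 1.07, 0.932 and 0.601 CPM with hairpin 6 and 1.26, 0.659 and 0.885 CPM with hairpin 8, against 0.731, 0.4102 and 0.381 CPM in controls in D425. Replicate 1 was the highest of each group and the groups overlapped. It rose with D425 hairpin 8 (0.89 ± 0.29 (SE, adjusted p 0.0351)), a call that ended without hairpin 8 replicates 1 or 3 or control replicates 2 or 3 (adjusted p up to 0.191, or 0.144 with the line alone), and with hairpin 6 it passed only with the block (0.76, adjusted p 0.0934, or 0.0245 with the block). D458 changes were -0.27 and 0.006 with hairpins 7 and 8. STARD4, a carrier of cholesterol between membranes and an SREBP target, had 6.21, 6.95 and 7.08 CPM with hairpin 6 and 9.38, 7.21 and 7.897 CPM with hairpin 8, against 11.5, 9.84 and 11.5 CPM in controls in D425. No hairpin library reached a control. Its change was -0.70 ± 0.17 (SE, adjusted p 0.00979) with hairpin 6 and -0.42 ± 0.16 (SE, adjusted p 0.0741) with hairpin 8, or adjusted p 0.02003 for the second with the block. D458 gave -0.26 and 0.13 with hairpins 7 and 8, and the gene has an antisense partner whose reads may be included.

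Some fatty acid synthesis genes fell in each line. Of the 9 genes, 3 were lower with D425 hairpin 6, 5 with D425 hairpin 8, 5 with D458 hairpin 7 and 4 with D458 hairpin 8, where 6.84%, 10.1%, 11.1% and 11.1% of all genes were called lower. The medians of the 9 were -0.23, -0.21, -0.26 and -0.22 in that order. With the block, ACLY was higher with D425 hairpin 8 (adjusted p 0.0398).

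FASN, fatty acid synthase, was the one member called lower in all 4 comparisons. D425 cells had 2616, 2742 and 2297 CPM with hairpin 6 and 2377, 2701 and 2319 CPM with hairpin 8, against 3008, 3344 and 3382 CPM in controls. D458 cells had 1913, 1723 and 1878 CPM with hairpin 7 and 1694, 1849 and 1902 CPM with hairpin 8, against 2667, 2299.9 and 2315 CPM in controls. Every hairpin library lay below every control of its line. Log2 fold changes were -0.35 ± 0.087 (SE, adjusted p 0.0134) and -0.40 ± 0.087 (SE, adjusted p 0.00432) in D425 with hairpins 6 and 8, and -0.40 ± 0.087 (SE, adjusted p 0.00479) and -0.42 ± 0.087 (SE, adjusted p 0.0035999) in D458 with hairpins 7 and 8. Leaving out any 1 library kept 3 of these calls, while the D425 hairpin 6 call ended without hairpin 6 replicate 3 or control replicates 2 or 3 (adjusted p up to 0.0765). With a replicate number left out of every group, only the D458 hairpin 8 call held each time.

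SCD, the desaturase that makes oleate, had 458.2, 534 and 524 CPM with hairpin 7 and 435, 606 and 612 CPM with hairpin 8, against 949, 749 and 752 CPM in controls in D458. Hairpin libraries were all below the controls. Its change was -0.69 ± 0.13 (SE, adjusted p 0.001895) with hairpin 7 and -0.57 ± 0.13 (SE, adjusted p 0.00585) with hairpin 8, calls that held without any 1 library. The hairpin 8 call ended without replicate 1 of every group. D425 levels were 897, 943 and 768 CPM with hairpin 6 and 909, 942 and 784 CPM with hairpin 8, against 1023, 1059.9 and 968 CPM in controls. There too the hairpin libraries lay below the controls, but the changes of -0.23 ± 0.13 (SE, adjusted p 0.269) and -0.21 ± 0.13 (SE, adjusted p 0.254) with hairpins 6 and 8 did not pass.

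ACACA, acetyl-CoA carboxylase, which makes the malonyl-CoA that FASN consumes, had 244, 227 and 230.03 CPM with hairpin 7 and 238, 248 and 237 CPM with hairpin 8, against 354, 299.9 and 295 CPM in controls in D458. The groups were again apart. Log2 fold changes were -0.44 ± 0.083 (SE, adjusted p 0.00231) with hairpin 7 and -0.39 ± 0.083 (SE, adjusted p 0.004204) with hairpin 8, and both calls held without any 1 library. The hairpin 8 call ended without replicate 3 of every group. In D425 the log2 fold changes were -0.16 ± 0.083 and -0.037 ± 0.083 with hairpins 6 and 8. ACLY, which supplies cytosolic acetyl-CoA from citrate, had 960.1, 979.7 and 1015 CPM with hairpin 7 and 903, 999 and 1062 CPM with hairpin 8, against 1259.8, 1126 and 1159 CPM in controls in D458, and 1359, 1306 and 1175 CPM with hairpin 6 and 1424, 1242 and 1255 CPM with hairpin 8, against 1207, 1143 and 1123 CPM in controls in D425. D458 hairpin libraries lay below their controls, and D425 hairpin 8 libraries above theirs. Its log2 fold changes were -0.26 ± 0.078 (SE, adjusted p 0.0238) and -0.26 ± 0.078 (SE, adjusted p 0.0255) in D458 with hairpins 7 and 8, and 0.15 ± 0.077 and 0.18 ± 0.077 in D425 with hairpins 6 and 8. The hairpin 7 call ended without any 1 of its 6 libraries (adjusted p up to 0.119) and the hairpin 8 call without hairpin 8 replicates 1 or 2 or control replicates 1, 2 or 3 (adjusted p up to 0.171, or 0.0608 with no filter).

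FADS1 and FADS2, the desaturases that make long polyunsaturated fatty acids, were called in D425. FADS2 had 509, 560.3 and 509 CPM with hairpin 6 and 488, 528 and 597 CPM with hairpin 8, against 643, 743 and 607 CPM in controls. FADS1 had 459, 499.9 and 469 CPM with hairpin 6 and 472, 504 and 509 CPM with hairpin 8, against 555, 627 and 541 CPM in controls. Both hairpin groups lay below the controls for both genes. FADS2 changed by -0.34 ± 0.10 (SE, adjusted p 0.0271) with hairpin 6 and -0.31 ± 0.10 (SE, adjusted p 0.0324) with hairpin 8. FADS1 changed by -0.27 ± 0.072 (SE, adjusted p 0.0187) with hairpin 6 and -0.21 ± 0.072 (SE, adjusted p 0.0427) with hairpin 8. The FADS2 calls ended for hairpin 6 without hairpin 6 replicates 1 or 3 or control replicate 2 (adjusted p up to 0.146) and for hairpin 8 without hairpin 8 replicates 1 or 2 or control replicate 2 (adjusted p up to 0.158). The FADS1 calls ended for hairpin 6 without hairpin 6 replicates 1 or 3 or control replicate 2 (adjusted p up to 0.108) and for hairpin 8 without hairpin 8 replicates 1, 2 or 3 or control replicates 2 or 3 (adjusted p up to 0.2001, or 0.0617 with no filter and 0.0663 with the line alone). FADS2 also fell with D458 hairpin 7 (-0.32 ± 0.10 (SE, adjusted p 0.0274), ended without hairpin 7 replicates 1, 2 or 3 or control replicates 1 or 3 (adjusted p up to 0.142)), and with D458 hairpin 8 it passed only with the block (-0.22, adjusted p 0.0319). The genes lie head to head with overlapping exons on opposite strands, so their reads may not be separate. Exons of FADS2 also overlap those of FEN1 on the same strand, which had log2 fold changes of -0.012 and -0.20 in D425 with hairpins 6 and 8 and of -0.53 and -0.56 in D458 with hairpins 7 and 8.

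ELOVL6, which elongates palmitate, had log2 fold changes of -0.33 ± 0.11 (SE, adjusted p 0.0553) with D425 hairpin 6 and -0.31 ± 0.11 (SE, adjusted p 0.04999) with D425 hairpin 8. The first passed with the block (adjusted p 0.00633), and the second ended without hairpin 8 replicates 1 or 3 or control replicates 2 or 3 (adjusted p up to 0.1902, or 0.0579 with no filter and 0.0512 with the line alone). AACS, which activates acetoacetate for lipid synthesis, fell by 0.56 with D425 hairpin 8 (adjusted p 0.0193), ending without hairpin 8 replicate 3 or control replicates 2 or 3 (adjusted p up to 0.0839), and had -0.12 with D425 hairpin 6, 0.18 with D458 hairpin 7 and -0.11 with D458 hairpin 8. ACSS2, which activates acetate, passed in none of the 4, with changes from -0.17 to 0.13. In all, 10 of the 38 were called in no hairpin comparison: SCAP, INSIG2, MVK, PMVK, TM7SF2, HSD17B7, ABCA1, NR1H2, NR1H3 and ACSS2. The shares of all genes called in none of the 4 comparisons, or lower in all 4 as FASN was, were not counted. Whether these member counts are unusual thus cannot be told.

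The hairpins of a line could not be separated gene by gene. No member was called between hairpin 8 and hairpin 6 in D425 or between hairpin 8 and hairpin 7 in D458 by edgeR or DESeq2. Over all genes edgeR called 0% in either comparison, and DESeq2 called 6 genes in D425 and 4 in D458. At an unadjusted p under 0.05, 1 of the 38 members passed in D425, where 3.49% of all genes passed. For D458 it was 3 of the 38, where 1.85% of all genes passed. In D458, 84.2% of the members were above 0 with hairpin 8 over hairpin 7, against 49.9% of all genes, with a median difference of 0.094 on the log2 scale. In D425 the share was 63.2%, against 51.7% of all genes, and the median 0.037. These shares and medians were not tested, and members of 1 pathway are not independent of each other. FDFT1 differed by 0.34 ± 0.11 (SE) and INSIG1 by 0.28 ± 0.14 between D458 hairpins 8 and 7, with 95% intervals of 0.10 to 0.58 and -0.0078 to 0.57. The intervals are not adjusted for the number of genes, the genes were chosen after their values were seen, and neither was called.

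Hairpin 8 was used in both lines, which allowed its effect in D458 to be tested against that in D425. Of the 38 genes, 4 (10.5%) were called, where 11.8% of all genes were, a similar share. Of these, 1 was more positive in D458 (6.19% of all genes) and 3 more negative (5.65% of all genes). With the block 11 were called, where 26.5% of all genes were. SREBF2 gave the smallest adjusted p, with a difference of effects of 0.54 ± 0.12 (SE, adjusted p 0.00942). It was higher in D458 and lower in D425. The call held without any 1 library but ended without replicate 2 or replicate 3 of every group. ACLY differed by -0.43 ± 0.11 (SE, adjusted p 0.0186), ABCG1 by -2.67 ± 0.69 (SE, adjusted p 0.0199) and NR1H3 by -0.71 ± 0.22 (SE, adjusted p 0.0476). The ABCG1 value depends on the 1 to 2 counts per D425 control library and is no bound on the difference. Calls ended for ACLY without D425 hairpin 8 replicate 1, D425 control replicate 3, D458 hairpin 8 replicate 1 or D458 control replicate 1 (adjusted p up to 0.0577), for ABCG1 without D425 control replicate 3 (adjusted p up to 0.0728) and for NR1H3 without any of 10 of the 12 libraries taken singly (adjusted p up to 0.126, or 0.0534 with RLE scaling and 0.0975 with no filter). The count was 2 without D425 hairpin 8 replicate 1 or D458 hairpin 8 replicate 1 and 1 without D425 control replicate 3. The shares of all genes in these runs are not given here, and fewer libraries also lower the number of calls the test can make. ACAT2, SCD, SQLE and CYP51A1, called in D458 and not in D425, had differences of -0.51 ± 0.29 (SE, adjusted p 0.266), -0.36 ± 0.18 (SE, adjusted p 0.209), -0.40 ± 0.19 (SE, adjusted p 0.192) and -0.49 ± 0.18 (SE, adjusted p 0.0774), none of which passed. With the block CYP51A1 passed (adjusted p 0.0342). FASN gave -0.024 ± 0.12 (SE, adjusted p 0.929), with a 95% interval of -0.28 to 0.24.

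**Figure D4:**
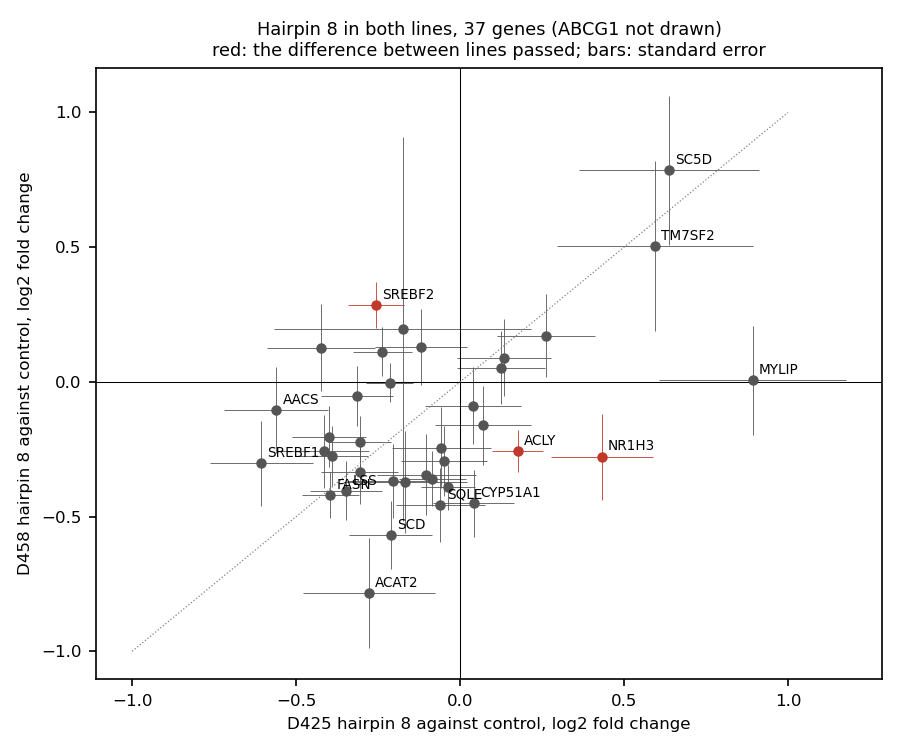
Log2 fold change of 37 genes with hairpin 8 in D425 (horizontal axis) and D458 (vertical axis), with standard errors, the line of equality dotted, and genes whose difference between lines passed in red. SREBF2 lies at -0.26 and 0.29, ACLY and NR1H3 lie below the line, and SC5D is above 0 on both axes; ABCG1 is not drawn.

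Control cells of the lines differed in this pathway as they did in most genes. Between D458 and D425 controls 29 of the 38 were called, 15 higher and 14 lower, where 62.8% of all genes were called. MYLIP had 14.6, 12.7 and 13.5 CPM in D458 controls, against 0.731, 0.4102 and 0.381 CPM in D425 controls, and ABCG1 had 2.09, 0.929 and 1.001 CPM in D458 controls, against 0.0366, 0.0746 and 0.0318 CPM in D425 controls. Among the sterol enzymes, NSDHL had 135, 106 and 111 CPM in D458 controls, against 63.4, 51.4 and 53.03 CPM in D425 controls and HSD17B7 had 45.6, 38.6 and 38.3 CPM in D458 controls, against 20.99, 14.8 and 16.3 CPM in D425 controls. None of these 4 overlapped between the lines, and the log2 fold change was 4.74 ± 0.26 for MYLIP, 1.07 ± 0.12 for NSDHL and 1.24 ± 0.15 for HSD17B7. For ABCG1 the D425 side rests on 1 to 2 counts per library.

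Lower in D458 controls were FADS2, with 264, 222 and 228 CPM in D458 controls, against 643, 743 and 607 CPM in D425 controls, and FADS1, with 367, 327 and 318 CPM in D458 controls, against 555, 627 and 541 CPM in D425 controls. ACACA had 354, 299.9 and 295 CPM in D458 controls, against 518, 604 and 565 CPM in D425 controls. SREBF1 had 69.8, 84.9 and 79.2 CPM in D458 controls, against 192, 267 and 252 CPM in D425 controls. All 4 were wholly below the D425 range. Their log2 fold changes were -1.48 ± 0.10, -0.77 ± 0.072, -0.83 ± 0.083 and -1.61 ± 0.16 (adjusted p 1.62e-09, 1.06e-07, 2.28e-07 and 2.51e-07). ABCA1 was also called lower, at 0.24 CPM on average in D458 controls, against 7.7 CPM (range 2.71 to 12.3 CPM) in D425 controls. Its log2 fold change of -4.99 was the lowest of the 38 genes, opposite in direction to that of the exporter ABCG1. Whole chromosomes differed between the lines too. The median over all genes was -0.40 on chromosome 11, which carries FADS1 and FADS2, and -0.42 on chromosome 17, which carries SREBF1, ACACA, FASN and ACLY. It was 0.66 on chromosome X, which carries NSDHL and EBP, and 0.55 on chromosome 6, which carries MYLIP and ACAT2. The lowest median was -0.59, on chromosome 21, which carries LSS and ABCG1. Not every member moved with its chromosome. ACLY averaged 1182 CPM in D458 controls, against 1157 CPM in D425 controls, and ABCG1 had a log2 fold change of 4.70. Within D425, hairpin 6 and hairpin 8 libraries had chromosome medians of -0.31 and -0.27 on chromosome 9 (ABCA1), -0.27 and -0.29 on chromosome 20 (ACSS2) and -0.14 and -0.14 on chromosome 3 (SCAP). Within D458, hairpin 7 and hairpin 8 libraries had chromosome medians of -0.14 and -0.16 on chromosome 16 (MVD), 0.16 and 0.18 on chromosome 4 (MSMO1 and ELOVL6), 0.13 and 0.17 on chromosome 5 (HMGCS1 and STARD4) and 0.13 and 0.14 on chromosome 2 (INSIG2). The part of these shifts in the genes' values was not tested.

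**Figure D5:**
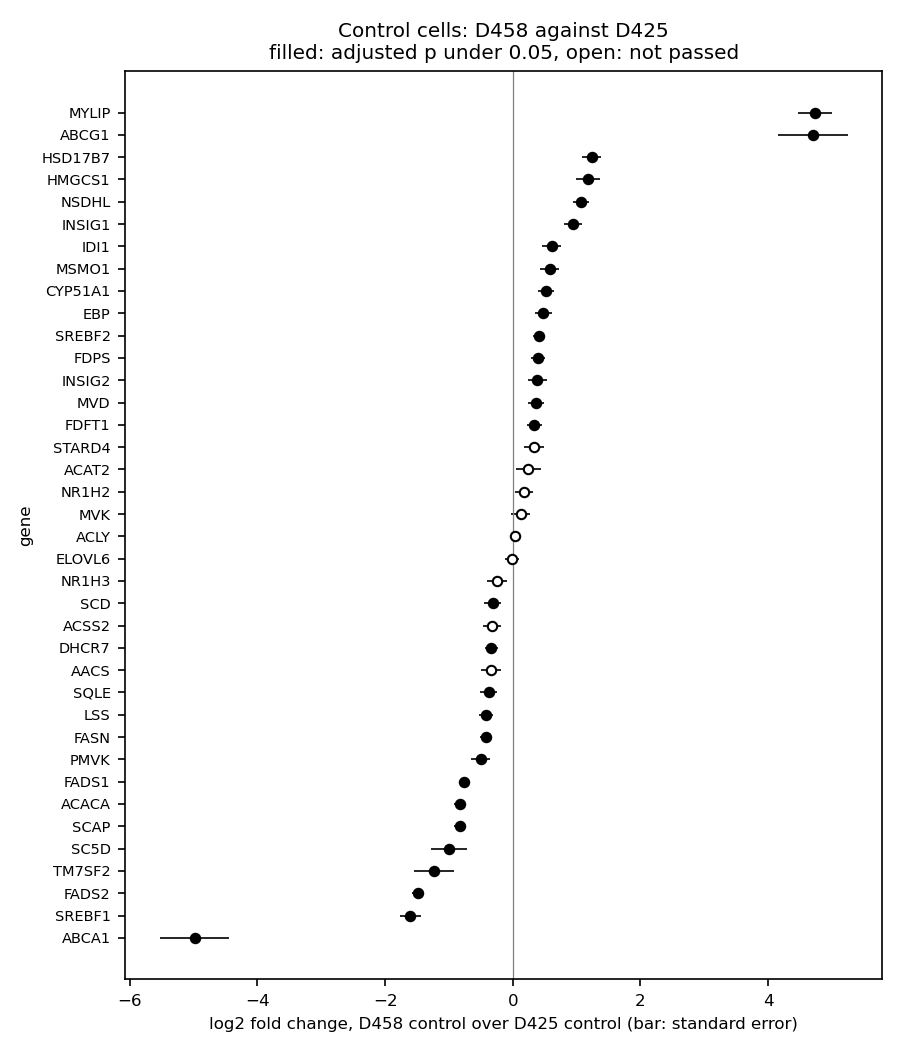
Log2 fold change of the 38 genes between D458 and D425 control cells, ordered by value, with standard errors and filled points for adjusted p under 0.05. The 15 filled points right of 0 are led by MYLIP and ABCG1, and the 14 filled points left of 0 include SREBF1, FADS2, ACACA and FADS1.

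Other genes of the same pathways were counted from lists of the wider machinery. Over all genes, 7.31% were called higher and 6.84% lower with D425 hairpin 6, 11.6% and 10.1% with D425 hairpin 8, 11.5% and 11.1% with D458 hairpin 7, and 12.1% and 11.1% with D458 hairpin 8, and several of the list counts below are near these shares. With the block, 27.8%, 37.2%, 39.98% and 39.6% of all genes were called in either direction, in the same order. Of 10 tested genes of SREBP processing, 1 was higher in each of the 4 comparisons and 1 lower in both of D458. With the block these were 2 higher and 6 lower with D458 hairpin 7, 2 and 2 with D458 hairpin 8, and 2 and 1 with D425 hairpin 8. FBXW7, the ligase adaptor that marks nuclear SREBPs for destruction, rose by 0.52 ± 0.10 and 0.58 ± 0.10 in D458 with hairpins 7 and 8. ERLIN1, part of the complex that degrades sterol regulators in the endoplasmic reticulum, rose by 0.37 and 0.39 in D425 with hairpins 6 and 8. Of 8 further sterol synthesis genes, 3 fell with D458 hairpin 7 and 1 with D458 hairpin 8, while in D425 edgeR and DESeq2 called 0 and 0 passed an unadjusted p under 0.05. With the block 1 was higher with either D425 hairpin and 3 were lower with D458 hairpin 8. C14orf1, a scaffold of the C4 demethylation complex known from yeast, fell by 0.43 and 0.28 in D458 (adjusted p 0.00507 and 0.0401).

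Of 16 tested genes of sterol uptake, storage and export, 1 was higher and 3 lower with D425 hairpin 6, 3 higher and 4 lower with D425 hairpin 8, and 4 higher and 3 lower with either D458 hairpin. With the block the higher count was 4 with D425 hairpin 6 and 5 with D425 hairpin 8, and the lower count was 5 with D458 hairpin 8. OSBPL2, an oxysterol-binding protein, fell by 0.51 and 0.36 in D425 with hairpins 6 and 8. RXRA, the dimer partner of the LXR receptors, rose by 0.93 and 0.92 in D458 with hairpins 7 and 8, and had 0.53 and 0.48 in D425 (adjusted p 0.0565 and 0.0598). Of 31 tested genes of fatty acid and glycerolipid synthesis, 5 rose with D425 hairpin 6, 5 rose and 3 fell with D425 hairpin 8, 3 rose and 5 fell with D458 hairpin 7, and 3 rose and 3 fell with D458 hairpin 8. With the block 4 fell with D425 hairpin 6 and 6 with D425 hairpin 8, and 5 rose with D458 hairpin 8. HSD17B12, a reductase of fatty acid elongation, rose by 0.56 and 0.63 in D425 with hairpins 6 and 8, and ACSL1, which activates long-chain fatty acids, by 1.20 and 1.15. PTPLA, a dehydratase of elongation, rose by 0.72 and 0.85 in D458 with hairpins 7 and 8.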

How the data were processed

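The deposited values are raw counts, whole numbers with 1 row per gene symbol and 1 column per library. Per the submitters' processing notes, the tools were TopHat2, Bowtie2 and HTSeq with bcl2fastq, FastQC, Picard and SAMtools, on GRCh37 and hg19. Per the labels' protocols the libraries were strand-specific. The strand setting of the counting is not given in the sources used here.

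Counts were analysed in R 4.3.3 with edgeR 4.0.16 (filterByExpr, minimum count 10, TMM, robust quasi-likelihood fit, 1 coefficient for each of the 6 groups over 18 libraries, 12 residual degrees of freedom), limma 3.58.1 and DESeq2 1.42.0. SEs are the log2 fold change over the root of F. The steps were tested on simulated data. P-values rest on the spread of libraries within their groups, estimated over all 6 groups and both lines, with information shared across genes. The 8 comparisons were 4 hairpins against their control, 2 hairpin against hairpin, the difference of the hairpin 8 effects, and D458 against D425 controls.

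The members and lists were chosen with earlier results of these data known. Values in every library are given for members called with both hairpins of a line (up to 10 per line) or between lines (up to 4 per direction in controls). From each further list, up to 3 called genes are named. Values printed for other members were chosen after they were seen. Some genes those rules name are not reported here. Same-numbered libraries of a line share a prefix, whose meaning is not stated, and a date in their descriptions, where replicates 2 and 3 share one date. They correlated in their deviations from group means (0.084 to 0.61 in D425, 0.13 to 0.70 in D458). The D425 minimum was under 0.1, so the pairing there rests on the shared prefix and date.

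Alternatives were DESeq2, RLE scaling, no filter, 1 line alone, the replicate block and leaving out libraries. Exon overlaps are from GENCODE 29.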

Additional observations from a re-analysis of the deposited data

Results flagged for a closer look

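The effect of hairpin 8 differed between the lines for 4 of the 38 genes by the edgeR interaction test, 1 more positive and 3 more negative in D458 than in D425. That is 10.5% of the members, against 11.8% of all genes. For SREBF2 the log2 fold change in D458 minus that in D425 was 0.54, with 0.29 in D458 and -0.26 in D425. The ACLY difference was -0.43, from -0.26 in D458 and 0.18 in D425, where D425 alone did not pass without the block. NR1H3 differed by -0.71, with -0.28 in D458 and 0.43 in D425, neither passing on its own. ABCG1 differed by -2.67, with 1.54 in D458 and 4.21 in D425, where controls held 1 to 2 counts per library.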

How the results depend on the processing

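With the replicate block the members called numbered 13 with D425 hairpin 6, 20 with D425 hairpin 8, 13 with both D425 hairpins, 17 with both D458 hairpins and 11 for the hairpin 8 difference, and the D425 hairpin 8 median was -0.11. Of all genes the block called 27.8% and 37.2% with D425 hairpins 6 and 8, and 26.5% for the difference. With D458 hairpins 7 and 8 it called 24 and 17 members, against 39.98% and 39.6% of all genes. Within D458 alone, both hairpins shared 7. The share of all genes called with both hairpins was not counted with the block, with the line alone or with libraries left out. The counts for both hairpins in those runs therefore have no share of all genes to be read against. Leaving out libraries, 1 at a time or 1 replicate number of every group, gave 1 to 14 called with D425 hairpin 6, 1 to 14 with D425 hairpin 8, 3 to 17 with D458 hairpin 7 and 3 to 16 with D458 hairpin 8, 1 to 10 and 1 to 15 with both hairpins in D425 and D458, and 0 to 6 for the hairpin 8 difference. The medians of the 38 then ran from -0.20 to -0.14 and from -0.17 to -0.10 with D425 hairpins 6 and 8, and from -0.38 to -0.24 and from -0.27 to 0.022 with D458 hairpins 7 and 8, the last without replicate 1 of every group. The cause was not tested, though fewer libraries also lower the number of calls the test can make. With 1 library left out, 6.38% to 17.6% of all genes were called with D425 hairpin 6 and 10.7% to 23.1% with D425 hairpin 8. For D458 hairpins 7 and 8 these ranges were 8.69% to 19.5% and 9.88% to 22.3%. RLE scaling, DESeq2 and no filter kept every count of called members over all 38 within 1.5 times the main count, and no called change of a named gene turned direction under any alternative run. Of 108 single-gene results, 14 gained and 0 lost their call with the block, 4 gained and 0 lost it with DESeq2, 2 lost it with RLE scaling and 5 with no filter, and with the line alone 1 gained and 9 lost it. Without replicates 1, 2 and 3 of every group in turn, 15, 36 and 39 lost it and 5, 0 and 0 gained it. Among smaller lists, DESeq2 called 2 SREBP regulators rather than 1 with D458 hairpin 7, and of the further lists 2 rather than 1 higher in sterol uptake and 1 rather than 0 lower in fatty acid synthesis with D425 hairpin 6, and 2 rather than 1 higher in SREBP processing with D458 hairpin 7. ABCG1 in D425 controls and ABCA1 in D458 are limited by counts.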

Other observations

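Genes of fatty acid oxidation, the opposite pathway, were counted from a list of 16, of which 15 were tested. With D458 hairpin 7, 2 rose, and with D458 hairpin 8, 5 rose, where 11.5% and 12.1% of all genes rose, with median log2 fold changes of 0.27 and 0.34 over the list. With the block 5 and 8 rose and 0 fell with either, where 39.98% and 39.6% of all genes were called in either direction. In D425, 1 rose and 3 fell with hairpin 6, and 1 rose and 2 fell with hairpin 8, with medians of 0.14 and -0.022, or 3 and 4 with hairpin 6 and 3 and 3 with hairpin 8 with the block. PPARGC1A, a coactivator of mitochondrial genes, rose by 1.66 ± 0.31 and 1.70 ± 0.31 in D458 with hairpins 7 and 8, and had -1.13 ± 0.33 and -0.87 ± 0.32 in D425 with hairpins 6 and 8 (edgeR adjusted p 0.0279 and 0.0611). HADHA, a subunit of the trifunctional protein, rose by 0.36 and 0.44 in D458 and had 0.16 and 0.17 in D425, which did not pass. ECI2, an enoyl-CoA isomerase, rose by 0.52 and 0.42 in D425 and had 0.12 and 0.12 in D458, which did not pass. The difference of the hairpin 8 effects was 2.57 for PPARGC1A (adjusted p 0.00196), 0.27 for HADHA (adjusted p 0.126) and -0.29 for ECI2 (adjusted p 0.184).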
